A study of Homo sapiens with 6 samples.

Results

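The fatty acid-binding protein family was examined in BE(2)-C cells, an established clonal human neuroblastoma line with amplified MYCN, on Affymetrix gene-level arrays. The tested cells were cultured with 5 µM BIX01294 for 24 h (3 arrays). The control cells received the solvent, 0.05% DMSO, for 24 h (3 arrays), and the labels give no DMSO content for the BIX01294 cells. BIX01294 blocks EHMT2 and EHMT1, enzymes that methylate lysine 9 on histone H3. The design text describes the triplicate samples as independent, but nothing says whether they came from separate culture days, so p-values measure the spread between these samples, which may be technical in part.

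The family was taken as 8 genes, FABP1, FABP2, FABP3, FABP4, FABP5, FABP6, FABP7 and PMP2, out of 18404 genes with a row of their own, that is, a row carrying exactly 1 gene symbol. Only 6 of the 8 had such a row: FABP2, FABP3, FABP4, FABP6, FABP7 and PMP2, with 1 row each. Rows were chosen by their mean over the 6 arrays, the highest being kept where a gene has several, so for these 6 genes there was nothing to choose. FABP1 and FABP5 lay only on rows shared with another symbol (PRDM10 and the pseudogene FABP5P3) and are described by those rows, whose values cannot be assigned to either gene. The family was singled out with the rise of FABP3 in these arrays already known, so the values of FABP3 are a description and its p is not independent support.

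Fatty acid-binding proteins are small cytosolic proteins that hold long-chain fatty acids and related lipids inside a barrel-shaped pocket and carry them between membranes, enzymes and nuclear receptors. Each member is named for the tissue where it is abundant. FABP3 is the form of heart and skeletal muscle, FABP7 that of brain and radial glia, PMP2 that of peripheral myelin, FABP4 that of adipocytes, FABP5 that of epidermis, FABP1 that of liver and FABP2 that of the small intestine. FABP6 binds bile acids in the ileum.

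The 250 bases upstream of the annotated start are shown for FABP3, the member with a large rise, and for FABP6, the other member with a row of its own that lay above the background limit given below. Both come from RefSeq (GRCh38.p14), and capitals mark a TATAAA element on either strand (TTTATA where it lies on the opposite strand). The FABP3 window is chr1:31373077-31373326 on the minus strand, and the FABP6 window is chr5:160229256-160229505 on the plus strand, at a start inside the annotated gene.
FABP3: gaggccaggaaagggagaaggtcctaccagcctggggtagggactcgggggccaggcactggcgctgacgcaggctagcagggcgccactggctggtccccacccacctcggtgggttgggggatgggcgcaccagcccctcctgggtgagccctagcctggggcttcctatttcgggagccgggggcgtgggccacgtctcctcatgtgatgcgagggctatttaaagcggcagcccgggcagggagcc
FABP6: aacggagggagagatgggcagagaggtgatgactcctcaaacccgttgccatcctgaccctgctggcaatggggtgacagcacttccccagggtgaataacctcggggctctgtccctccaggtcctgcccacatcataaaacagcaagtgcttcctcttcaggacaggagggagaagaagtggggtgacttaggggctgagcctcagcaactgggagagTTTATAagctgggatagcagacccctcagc
The FABP3 window held 13 CpG dinucleotides and 69.2% G and C, against medians of 11 and 58.0% over the 27305 annotated promoters of the same length. The FABP6 window held 3 CpG dinucleotides and 56.8% G and C. A search on both strands for TATAAA (present in 11.1% of all promoters), GGGCGG (42.3%), CACGTG (6.49%) and the nuclear receptor half-site AGGTCA (12.1%) found none of these letters in the FABP3 window and 1 TATAAA in the FABP6 window. The arrays measured nothing at these sequences.

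FABP3 was the family member with a row of its own that passed the test. It read 9.56, 9.39 and 9.36 in the 3 BIX01294 arrays, against 6.48, 6.28 and 6.48 in the 3 DMSO arrays (log2 levels as deposited). Every BIX01294 array lay above every DMSO array, with a gap many times the spread inside either group. The means were 9.43 ± 0.11 in BIX01294 and 6.41 ± 0.11 in DMSO (SD, n = 3 each). The log2 change was 3.02 ± 0.080 (SE), an 8.13-fold rise with a 95% interval of 7.16 to 9.23, and the adjusted p in limma over all 18404 genes was 6.69e-07. FABP3 ranked 3 among all genes ordered from the largest rise down. Over all 15 alternative settings, including each array left out in turn, the log2 change lay between 2.96 and 3.06.

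The table holds no detection call, so a limit for background was taken from 340 olfactory receptor genes, a family of nasal odour receptors that a neuroblastoma line is not known to use. The 95th percentile of their mean levels was 6.28 on the log2 scale. Their 99th percentile was 6.73 and the highest of them read 8.78, so a row above the limit is not thereby shown to be expressed. Probes differ in how brightly they report, so this limit only places a row, and levels of different genes are not set against each other. The BIX01294 mean of FABP3 was 3.15 above this limit, and its DMSO mean was 0.13 above it. DMSO replicate 2, at 6.28, lay on the limit. The DMSO level of FABP3 therefore lay close to background, where an array can understate a fold change.

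FABP6 lay far above the background limit in both groups and did not pass the test. Its levels were 11.64, 11.64 and 11.56 in BIX01294, against 11.79, 11.71 and 11.65 in DMSO (log2), all more than 5 units above the background limit. The BIX01294 arrays lay just below the DMSO arrays without overlap, which was the case for 40.1% of all genes in one direction or the other. The log2 change of -0.10 ± 0.060 (SE) did not pass (adjusted p 0.267 in limma), and its 95% interval ran from -0.24 to 0.03.

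**Figure D1:**
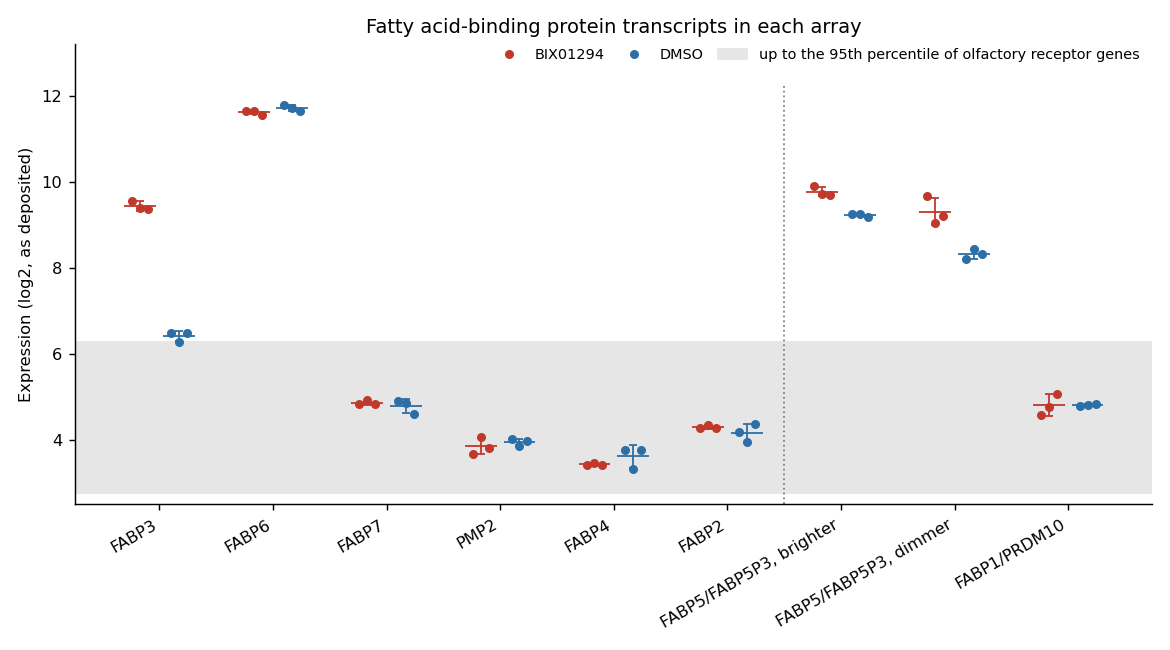
Expression of each family row in each array (log2, as deposited), with BIX01294 in red left of DMSO in blue; points are arrays, horizontal lines are means and error bars are SD (n = 3). Left of the dotted line are rows with 1 symbol and right of it rows shared with another symbol; the grey band runs from the lowest olfactory receptor gene to the 95th percentile of these genes (6.28), and FABP3 lies between 9.36 and 9.56 in BIX01294, against the upper edge of the band in DMSO.

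The brain and myelin forms did not pass the test. FABP7 measured 4.83, 4.92 and 4.84 in BIX01294, against 4.91, 4.86 and 4.60 in DMSO. PMP2 measured 3.68, 4.06 and 3.82 in BIX01294, against 4.02, 3.86 and 3.97 in DMSO. For both genes the groups overlapped and every array lay below the background limit. The log2 change of FABP7 was 0.07 ± 0.085 (SE; 95% interval -0.12 to 0.27; adjusted p 0.599 in limma). That of PMP2 was -0.10 ± 0.098 (SE; 95% interval -0.32 to 0.13; adjusted p 0.552 in limma).

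The adipocyte and intestinal forms were also near background. FABP4 measured 3.41, 3.46 and 3.41 in BIX01294, against 3.76, 3.32 and 3.77 in DMSO. DMSO replicate 2 lay below all 3 BIX01294 arrays while the other two DMSO arrays lay above them, so the groups overlapped. The log2 change was -0.18 ± 0.116 (SE; 95% interval -0.45 to 0.08) with an adjusted p of 0.313 in limma. Without DMSO replicate 2 it was -0.33 and passed (adjusted p 0.0124 in limma; 0.0124 to 0.613 over its alternatives), at a level that is not told apart from background. FABP2 measured 4.28, 4.35 and 4.28 in BIX01294, against 4.18, 3.94 and 4.36 in DMSO, with overlapping groups and a log2 change of 0.14 ± 0.099 (SE; 95% interval -0.09 to 0.37; adjusted p 0.369 in limma).

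Of the 6 members with a row of their own, 1 rose, none fell and 5 did not pass. Over all 18404 genes 23.6% were called in either direction, 12.9% higher and 10.7% lower, and the median log2 change was -0.01. A count of 1 in 6 is near that background, so the family as a group is not set apart by its number of calls. The 4 members FABP2, FABP4, FABP7 and PMP2 had both group means below the background limit, where 4.49% of 5273 genes were called, against 31.3% of the 13131 other genes. For these 4 genes a low or absent transcript and a change too small to be seen cannot be told apart.

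The rows shared by FABP5 and its pseudogene FABP5P3 rose, and the row shared by FABP1 and PRDM10 did not. These rows were tested in a fit over all 32321 rows of the table, in which 13.1% were called and 7.32% were called higher. The brighter FABP5 and FABP5P3 row read 9.89, 9.72 and 9.69 in BIX01294, against 9.24, 9.25 and 9.19 in DMSO. The log2 change of this row was 0.54 ± 0.070 (SE), a 1.45-fold rise with a 95% interval of 1.29 to 1.63 (adjusted p 0.00617 in limma). The dimmer row read 9.66, 9.05 and 9.20 in BIX01294, against 8.21, 8.44 and 8.32 in DMSO.

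On both of these rows every BIX01294 array lay above every DMSO array. The dimmer row changed by 0.98 ± 0.161 (SE) on the log2 scale, a 1.97-fold rise with a 95% interval of 1.51 to 2.58 (adjusted p 0.0126 in limma). Without DMSO replicate 1 its adjusted p was 0.0511 in limma (0.00655 to 0.0511 over its alternatives) and the change 0.92. Whether FABP5, the pseudogene or both rose is not shown by these rows, and RefSeq lists many further FABP5 pseudogenes. The FABP1 and PRDM10 row read 4.57, 4.77 and 5.07 in BIX01294, against 4.79, 4.82 and 4.83 in DMSO, below the background limit throughout and with overlapping groups (log2 change -0.01 ± 0.123 SE; adjusted p 0.974 in limma).

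**Figure D2:**
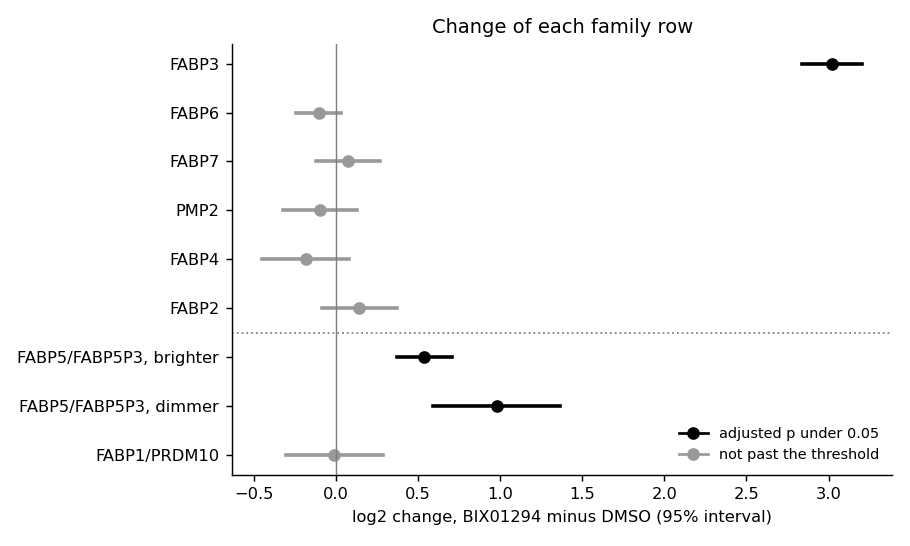
Log2 change (BIX01294 minus DMSO) of each family row with its 95% interval from limma; black rows passed an adjusted p of 0.05 and grey rows did not. FABP3 stands at 3.02, both FABP5 and FABP5P3 rows are above 0 at 0.54 and 0.98, and the intervals of the other rows include 0.

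The genes whose profile over the 6 arrays was nearest to that of FABP3 were metallothionein genes and HTN1. Nearness was the Euclidean distance between log2 values after each gene was centred on its own mean, and genes that share a large treatment difference come out near each other by construction. MT2A, a zinc- and copper-binding metallothionein, was nearest at a distance of 0.139, with 11.87 ± 0.07 in BIX01294 and 8.83 ± 0.10 in DMSO (SD, n = 3 each). Its log2 change was 3.04 and ran from 2.29 to 3.09 over its 15 alternatives. The distance was measured only on the row used here. MT1G, another metallothionein, followed at 0.419, with 9.99 ± 0.10 in BIX01294 and 6.87 ± 0.12 in DMSO (SD, n = 3 each). HTN1, which encodes a salivary peptide, came next at 0.516, with 6.53 ± 0.30 in BIX01294 and 3.66 ± 0.23 in DMSO (SD, n = 3 each), its DMSO level below the background limit. These genes lie on chromosomes 16, 16 and 4, and FABP3 lies on chromosome 1.

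Among the protein-coding genes on either side of FABP3 the largest change was 0.44 on the log2 scale. Of the 3 nearest on each side in RefSeq order, all 6 were measured, 2 rose and none fell, beside 12.9% of all genes called higher. SERINC2, a membrane protein of the serine incorporator family and the next coding gene on one side, measured 8.25 ± 0.03 in BIX01294 and 7.81 ± 0.04 in DMSO (SD, n = 3 each), a 1.36-fold rise (adjusted p 0.000826 in limma). With the array's SERINC2 rows averaged, its log2 change was 0.18 (adjusted p 0.0438 in limma, the highest of 15 alternatives, the lowest being 2.64e-05). ZCCHC17, a zinc finger protein gene and the next on the other side, rose 1.20-fold (adjusted p 0.0177 in limma), a call lost without BIX01294 replicate 1 or 3 or DMSO replicate 1. The other four, NKAIN1, SNRNP40, TINAGL1 and HCRTR1, had log2 changes between -0.14 and 0.19 and did not pass. Around FABP6, 3 of 6 coding neighbours rose and none fell, beside 12.9% of all genes called higher and 10.7% called lower. TTC1 rose 1.28-fold, CCNJL 1.26-fold and C1QTNF2 1.21-fold (adjusted p 0.00994, 0.00295 and 0.00733 in limma), while FABP6 itself did not pass. The other members differed. Around FABP1, 1 of 4 measured neighbours rose and 2 fell. For FABP4, 1 of 4 rose and none fell. ZNF704, which fell, was the only called neighbour of FABP5 and of PMP2. None was called around FABP2 or FABP7.

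**Figure D3:**
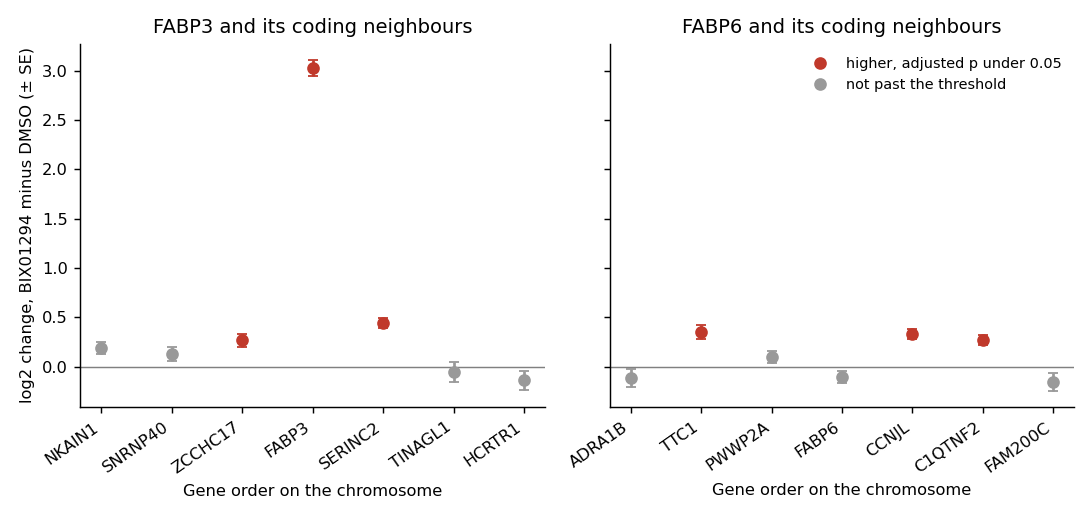
Log2 change (BIX01294 minus DMSO, ± SE) of FABP3 (left) and FABP6 (right) with the 3 nearest protein-coding genes on each side, in chromosome order and not to scale in distance; red points passed an adjusted p of 0.05 and grey points did not. FABP3 at 3.02 stands far above its neighbours, the highest of which is SERINC2 at 0.44.

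PMP2, FABP4 and FABP5 lie in 1 cluster on chromosome 8 with FABP9 and FABP12, in the order FABP5, PMP2, FABP9, FABP4 and FABP12. FABP12, an additional family gene, measured 3.48 ± 0.07 in BIX01294 and 3.45 ± 0.09 in DMSO (SD, n = 3 each), below the background limit (adjusted p 0.805 in limma). FABP9 was not analysed here. All 3 genes of the cluster with a row of their own (PMP2, FABP4 and FABP12) were thus near background and not called. The coding genes flanking the cluster moved both ways. IMPA1, an inositol monophosphatase and the coding gene just past FABP12, rose 1.38-fold (adjusted p 0.00128 in limma), and SLC10A5 beyond it did not pass. On the FABP5 side ZNF704 fell by 0.30 on the log2 scale (adjusted p 0.00857 in limma), and PAG1 and ZBTB10 did not pass.

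Related lipid-binding barrel proteins were counted as FABP12 and the retinoid carriers CRABP2, RBP2, RBP5 and RBP7. Of these 5 measured genes 1 fell and none rose, with a list median of -0.10. CRABP2, which delivers retinoic acid to nuclear receptors, had levels of 7.57, 7.66 and 7.49 in BIX01294, against 7.84, 8.01 and 7.85 in DMSO, a 1.25-fold fall without overlap (adjusted p 0.0128 in limma). The call was lost without BIX01294 replicate 3 (adjusted p 0.0533 in limma; 0.00144 to 0.0533 over its alternatives).

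Genes of fatty acid entry and activation, the steps that supply the ligands of these proteins, included 5 rises and 1 fall among 17 measured genes, with a median log2 change of 0.03. MFSD2A, a transporter of lysophospholipids that carry docosahexaenoic acid, measured 8.76, 8.65 and 8.56 in BIX01294, against 7.93, 7.91 and 7.93 in DMSO, a 1.66-fold rise (adjusted p 0.000213 in limma). SLC27A4, a fatty acid transport protein, rose 1.53-fold, with 10.03 ± 0.10 in BIX01294 and 9.41 ± 0.06 in DMSO (SD, n = 3 each). The acyl-CoA synthetases ACSL1 and ACSL4, which trap fatty acids as thioesters, rose 1.47-fold and 1.40-fold (adjusted p 0.00117 and 0.00137 in limma). DBI, the acyl-CoA-binding protein, rose 1.33-fold, a call lost without any 1 DMSO array. The transporter SLC27A6 fell 1.17-fold, and lost its call in 6 of 14 alternatives, among them median centring and the fits without BIX01294 replicate 1 or 2 or DMSO replicate 1 or 2. CD36, the fatty acid receptor of muscle and adipocytes, differed by -0.03 and was near background in both groups.

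Among the lipid-sensing nuclear receptors and their coactivator, 3 of 10 fell and 1 rose, with a median of -0.08. RARG, a retinoic acid receptor, fell 1.54-fold to 8.13 ± 0.06 in BIX01294, against 8.75 ± 0.07 in DMSO (SD, n = 3 each; adjusted p 0.000377 in limma). PPARG and PPARA, receptors activated by fatty acids, fell by 0.32 and by 0.20 on the log2 scale (adjusted p 0.0205 and 0.0294 in limma). PPARG lay close to background, its means being 0.15 above the limit in BIX01294 and 0.47 above it in DMSO. The call of PPARG was lost without BIX01294 replicate 3 or without DMSO replicate 2 or 3, and that of PPARA in 8 of its 14 alternatives, median centring and the intensity trend among them. The falling receptors numbered 1 without BIX01294 replicate 3 and without DMSO replicate 2 or 3, and in 5 of 15 alternatives, median centring among them, 2 receptor genes rose. PPARGC1A, a coactivator of PPARs and of mitochondrial genes, rose 1.48-fold, with 9.47 ± 0.10 in BIX01294 and 8.90 ± 0.12 in DMSO (SD, n = 3 each).

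Target genes of the PPARs moved both ways: 4 of 18 rose and 2 fell, with a median of -0.01, and without BIX01294 replicate 1 or DMSO replicate 2 only 2 rose. VLDLR, a receptor for triglyceride-rich lipoproteins, fell 2.01-fold, with 8.45, 8.56 and 8.49 in BIX01294, against 9.48, 9.59 and 9.45 in DMSO (adjusted p 4.35e-05 in limma). FGF21, a secreted metabolic hormone, fell to 5.98 ± 0.28 in BIX01294, below the background limit, against 6.57 ± 0.08 in DMSO (SD, n = 3 each; adjusted p 0.0123 in limma). ACADVL, the first enzyme of mitochondrial very-long-chain fatty acid oxidation, rose 1.50-fold, and SLC25A20, the carnitine-acylcarnitine carrier, rose 1.26-fold. CPT1A, which commits fatty acids to mitochondrial oxidation, rose 1.19-fold, a call lost with array weights and without any 1 array other than DMSO replicate 1. The lipid droplet protein PLIN2 rose 1.21-fold, a call lost without BIX01294 replicate 1 or DMSO replicate 2. The PPAR targets ANGPTL4 and PDK4 differed by 0.06 and -0.07 and did not pass.

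Of 16 genes of lipid storage and release, 2 rose, none fell and the median was -0.01. ABHD5, the coactivator of adipose triglyceride lipase, rose 1.46-fold, with 9.33 ± 0.14 in BIX01294 and 8.78 ± 0.16 in DMSO (SD, n = 3 each; adjusted p 0.00600 in limma). CIDEA, a lipid droplet protein, passed narrowly (adjusted p 0.0493 in limma) at a level near background in both groups, with 5.90 ± 0.16 in BIX01294 and 5.63 ± 0.04 in DMSO (SD, n = 3 each). It lost its call in 7 of its 13 alternatives, leaving out BIX01294 replicate 2 or 3 or any 1 DMSO array among them. LIPE, the hormone-sensitive lipase that binds FABP4 in adipocytes, differed by -0.09 and did not pass. For each of these lists the share called, between 12.5% and 40.0%, is to be read beside the 23.6% of all genes. The share also varied with level: 31.3% of genes not near background were called, against 4.49% of those near it.

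**Figure D4:**
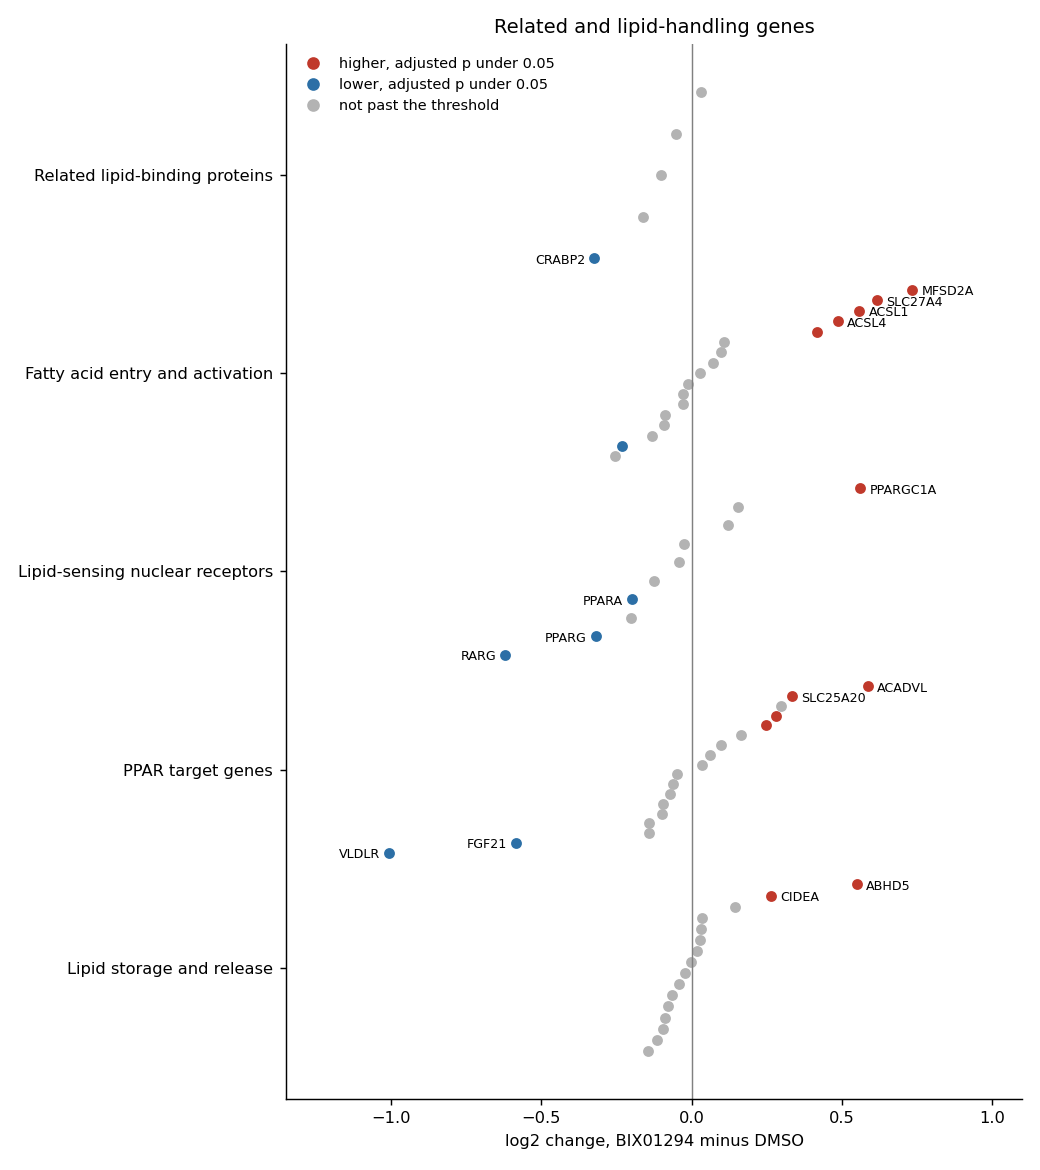
Log2 change (BIX01294 minus DMSO) of each measured gene in 5 lists, 1 point per gene, spread vertically by rank within its list; red points passed an adjusted p of 0.05 with a rise, blue with a fall, and grey did not pass. The changes run from -1.01 (VLDLR) to 0.73 (MFSD2A), so none of the points comes close to the 3.02 of FABP3.

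Markers of the tissues that give the family its names were read beside these results, and their part in the results was not tested. In bulk RNA, more cells of a type and more transcript per cell cannot be told apart. The sympathoadrenal markers of the labelled line were above the background limit in all 13 of the genes measured of 15, with mean levels of 11.29 to 11.32 over the BIX01294 arrays and 11.31 to 11.34 over the DMSO arrays. Of the 13, 4 rose and 4 fell, 61.5% called beside 23.6% of all genes and 31.3% of the genes not near background. Where only genes at or above the median level were tested, 4749 of 9202 were called, so a high share goes with bright rows. STMN2, the neuronal microtubule regulator stathmin 2, fell by 0.46 on the log2 scale, with 12.73 ± 0.03 in BIX01294 and 13.19 ± 0.02 in DMSO (SD, n = 3 each; adjusted p 0.000674 in limma). GATA3, PHOX2A and CHGA also fell (log2 changes -0.23, -0.20 and -0.19). ISL1, ELAVL4, GATA2 and DDC rose (log2 changes 0.34, 0.29, 0.21 and 0.18), DDC only narrowly past the threshold (adjusted p 0.04998 in limma). MYCN, CHGB and DBH, also among the highest of these markers, did not pass. Of 11 cardiac and skeletal muscle markers, 1 rose and 1 fell, 18.2% called, and 5 lay above the background limit. Their mean level ran from 6.38 to 6.44 in BIX01294 and from 6.37 to 6.42 in DMSO. ACTC1, cardiac alpha-actin, rose to 7.43 ± 0.24 in BIX01294, against 6.15 ± 0.17 in DMSO, which lies below the background limit (SD, n = 3 each; adjusted p 0.000373 in limma). The cardiac troponin TNNI3 fell, with 6.36 ± 0.17 in BIX01294 and 6.80 ± 0.10 in DMSO (SD, n = 3 each; adjusted p 0.0110 in limma). ACTA1, skeletal alpha-actin, measured 8.15 in BIX01294 and 8.03 in DMSO and did not pass. Nor did the muscle filament protein desmin (DES), with 7.19 in BIX01294 and 7.21 in DMSO, or the myogenic factor MYOG, with 7.14 in BIX01294 and 7.18 in DMSO. Myoglobin (MB) was below the limit in both groups. Of 10 glial markers 3 were called, beside 23.6% of all genes and 31.3% of the genes not near background. S100B and NES rose and SOX2 fell. S100B lost its call without BIX01294 replicate 1 or 3 and NES without DMSO replicate 3. GPM6B, the highest of these markers, measured 10.35 in BIX01294 and 10.50 in DMSO and did not pass. Nor did GFAP, with 7.01 in BIX01294 and 7.12 in DMSO. The mean level of the glial markers was 6.79 to 6.91 in BIX01294 and 6.84 to 6.86 in DMSO. SOX2 measured 6.07 ± 0.06 in BIX01294, below the background limit, and 6.42 ± 0.06 in DMSO, 0.14 above it (SD, n = 3 each). None of the 9 adipocyte markers or the 12 enterocyte and hepatocyte markers was called, beside the 23.6% of all genes. Of these, 4 adipocyte markers and 8 enterocyte and hepatocyte markers lay near background, where 4.49% of genes were called. Their mean levels were 6.35 to 6.54 and 5.74 to 5.86 in BIX01294, against 6.47 to 6.58 and 5.72 to 5.87 in DMSO. Of the enterocyte and hepatocyte markers, 4 lay above the background limit, among them APOA1 at 7.16 in BIX01294 and 7.13 in DMSO. APOA1 still lay below the highest olfactory receptor gene, at 8.78.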

How the data were processed

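The deposited table holds log2 values made by the authors, 1 per transcript cluster and array (the log2 scale is read from the values, 1.93 to 14.93). Partek is the only tool in the submitters' processing notes; how background, scaling and probe summaries were handled is not stated there. Array medians were 6.94 to 7.01, and correlations were 0.994 to 0.996 within groups and 0.989 to 0.992 between groups. All 6 value columns were used, and precision is limited by having 3 arrays per group.

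The table has 32321 rows: 19158 with a single symbol in the platform annotation, 1388 with several and 11775 with none. Symbols were updated through Entrez identifiers, which were found in RefSeq (GRCh38.p14) for 19128 of the single-symbol rows. The row with the highest mean was kept for each of 18404 genes. Values were tested with limma 3.58.1 in R 4.3.3 (treatment as the only term, empirical Bayes, two-sided, Benjamini-Hochberg adjustment over all genes, threshold 0.05). Rows with several symbols were tested in a fit over all rows. On 10 simulated data sets of 18404 genes for BIX01294 against DMSO the fit recovered 71.9%, 95.2% and 99.7% of genes changed by 0.5, 1 and 2 on the log2 scale. Of the simulated calls, 5.20% were false. Far fewer genes were changed in the simulations than the 4349 called in these arrays, and the noise was independent between genes. The shares therefore do not carry over directly to these data.

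The members and lists were chosen with earlier results of these data known. The genes named are all members, up to 4 called genes per list by size of change, the 3 profiles nearest to a called member, and up to 4 of the highest markers per list. DBI, SLC27A6, CPT1A, PLIN2, CD36, ANGPTL4, PDK4, LIPE, TNNI3, MB, SOX2, FABP12, the neighbouring genes, the promoter windows and the motifs were added after the data were seen. So were the sympathoadrenal markers GATA3, PHOX2A, CHGA, ISL1, ELAVL4, GATA2 and DDC. The closing section gives the alternatives.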

Additional observations from a re-analysis of the deposited data

Results flagged for a closer look

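The 2 rows shared by FABP5 and FABP5P3 lie outside the test of genes with 1 symbol and still held a difference from the control arrays. The log2 changes were 0.54 for the brighter row and 0.98 for the dimmer one, both higher in 3 of 3 BIX01294 arrays.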

How the results depend on the processing

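Results were recomputed with array weights, quantile normalization or median centring, with dim genes removed at the lower quartile or the median, with rows of a gene averaged or all single-symbol rows tested, with a trended robust variance model, with a replicate block, and without each array in turn. The fits over all rows were added after the data were seen. FABP3 kept its rise and its call in all 15 alternatives (log2 change 2.96 to 3.06, highest adjusted p 3.08e-05 in limma), and the calls over all genes ran from 1699 to 2991 higher and from 1318 to 2333 lower. The filters on dim genes left out FABP2, FABP4, FABP7 and PMP2. With 1 array left out, 0 to 1 members fell (FABP4, without DMSO replicate 2), and 4 to 6 listed genes fell, against 7 with all arrays. The lowest count of falls, 4, came without BIX01294 replicate 3 and without DMSO replicate 2. Rises among the listed genes numbered 8 (without DMSO replicate 2) to 10 with 1 array left out, against 12 with all arrays. FABP7 ranged from -0.0195 (without DMSO replicate 3) to 0.133 on the log2 scale with 1 array left out. FABP2 ranged from 0.0317 (without DMSO replicate 2) to 0.240 (without DMSO replicate 3) and PMP2 from -0.201 (without BIX01294 replicate 2) to -0.00950 (without BIX01294 replicate 1), and neither was called in any of its 13 alternatives. FABP6 ranged from -0.141 to -0.0674 over its 15 alternatives. FABP12 ranged from -0.00997 to 0.0775 with 1 array left out. The FABP1 and PRDM10 row was at 0.0234 with centring and 0.0559 with array weights, and ranged from -0.144 to 0.106 with 1 array left out. Taking the lower quartile of all genes as background limit also put 4 members below it. The cause of these shifts was not tested.

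BIX01294 and DMSO arrays share replicate numbers, but no label ties a number to a common culture or day. Deviations from the group means correlated at 0.12, -0.11 and 0.05 for the 3 numbers, and 3 of 6 arrays correlated best with their own number. With the replicate block FABP3 changed by 3.02 (adjusted p 1.88e-05 in limma), and 3641 genes were called, against 4349 without it.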
